A study of Homo sapiens with 18 samples.

Results

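Imprinted genes outside the GNAS locus were followed across 18 RNA-seq libraries from HEK293 cells, a human embryonic kidney line. The list held 32 genes from 17 imprinted domains, chosen by name from established imprinted loci with earlier results of these data known. Transcript counts were summed to genes, and 28 of the 32 genes were measured among 34255 genes in all. Of these, 15 passed the low-count filter and were tested with 15519 genes in total, 11 stayed under 10 counts in all 18 libraries and are called silent here, and 2 fell between. The transcripts of MEG3, H19, KCNQ1OT1 and ZDBF2 were not analysed here. The cells were of 3 lines: wildtype, β-arrestin1/2 KO (edited by CRISPR–Cas9 to lack both β-arrestins) and Gαs KO (edited in the same way to lack the G protein subunit made from GNAS). All 3 lines transiently overexpressed the wildtype β2-adrenergic receptor (β2AR) and were serum starved overnight. At 48 h after transfection they received vehicle (basal) or 1 μM isoproterenol, a β-adrenergic agonist, for 1 h. Each of the 6 groups of line and treatment had 3 libraries labelled as biological replicates. The sources used here do not say whether a KO line was 1 clone, so a difference between lines covers every way in which these cultures differed and not the deleted gene alone.

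An imprinted gene is transcribed mainly from the chromosome inherited from one parent, because DNA methylation at a control region was set differently in egg and sperm. Imprinted genes lie in clusters that share a control region, and many act on fetal and placental growth, with paternally expressed IGF2 promoting growth and maternally expressed CDKN1C restraining it. These counts do not separate the parental alleles, so they give the total output of a gene and not its imprint. In bulk RNA, a change in the number of expressing cells and a change in RNA per cell cannot be told apart.

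The libraries held 17908597 to 25019834 counts, with a median of 20419460. Of these counts, 92.9 to 93.7% fell on transcripts that could be assigned to a gene. GNAS lay between 1173 and 1365 normalised counts in the Gαs KO libraries and between 20419 and 33553 in the others. ARRB2 lay between 291 and 441 in β-arrestin1/2 KO and at or above 1371 elsewhere, whereas ARRB1 passed the test in none of the 6 comparisons between lines. All 10 HEK293 marker genes were detected, with summed levels of 36978 to 38611 in Gαs KO and 19876 to 25028 in the other lines. Of the markers of other cell types, 2 of 7 fibroblast genes, 2 of 5 leukocyte genes and 5 of 5 hepatocyte genes were silent. Wildtype basal replicate 1 stood apart, with a count-weighted transcript GC content of 52.5% against 49.1 to 50.1% in the other 17 libraries. For the members, results that rest on it are given with and without it. Values of genes near the members, of whole chromosomes and of the further gene lists below are given with all libraries only.

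The detected imprinted genes spanned a wide range of levels. Per unit of transcript length, expressed as TPM (transcripts scaled to a fixed sum per library), the mean over all libraries was highest for IGF2R at 60.6 TPM, followed by BLCAP at 49.9, UBE3A at 41.3 and SGCE at 41.1. GRB10, CDKN1C, PLAGL1, PHLDA2 and TRAPPC9 lay between 10.9 and 34.6 TPM, and IGF2 and L3MBTL1 at 8.83 and 8.10 TPM. PEG10, SLC22A18, KCNK9 and DIRAS3 were the lowest of the tested genes, between 0.466 and 1.84 TPM. In the heat map of all measured members the silent genes are low in every line and treatment by their definition. PHLDA2, otherwise detected, was at 0 in 1 library.

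**Figure D1:**
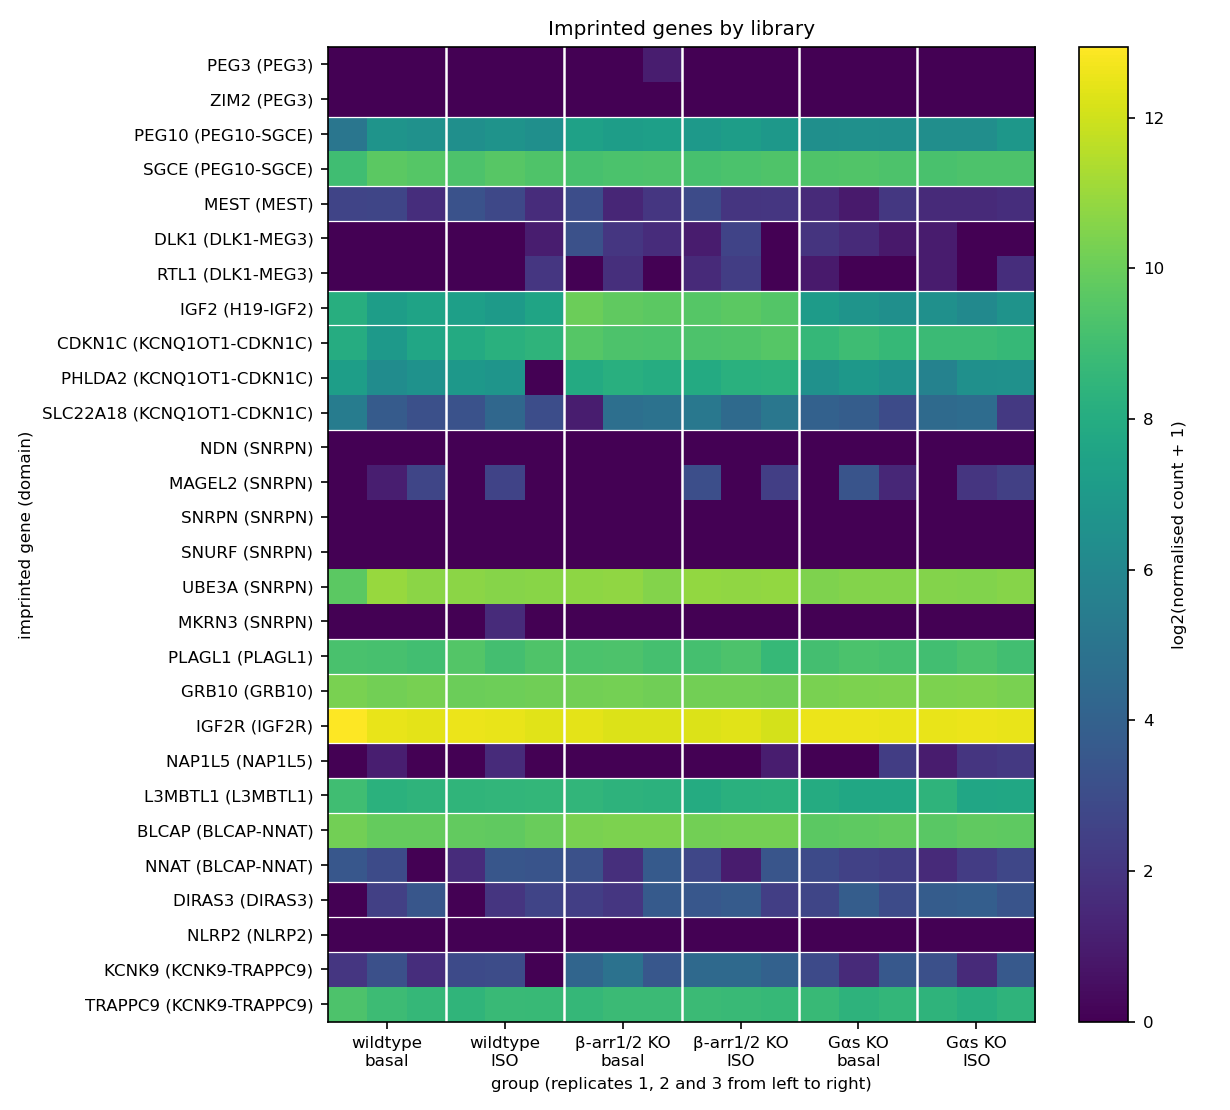
Heat map of log2(normalised count + 1) for the 28 measured imprinted genes (rows, with their domain) in the 18 libraries (columns, grouped by line and treatment, ISO meaning isoproterenol). The silent genes are dark across all columns, and IGF2 is brighter in the 6 β-arrestin1/2 KO libraries than in the other 12.

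Silence was most complete in the PEG3 and SNRPN domains. PEG3, a zinc finger gene, had a highest count of 1 in any library, and its neighbour ZIM2 had 0 in all 18. In the SNRPN domain of chromosome 15, the region of Prader-Willi and Angelman syndromes, NDN, SNRPN and SNURF had 0 counts in all 18 libraries. MKRN3 reached 2 counts, and MAGEL2 was at 0 in 9 libraries and reached 10 counts. A count of 0 allows up to 3 counts in a library, or 0.168 CPM (counts scaled to the library total) at the lowest total, and covers counting error only. UBE3A, the ubiquitin ligase at the far side of the same domain, was by contrast among the most abundant members. At the other paternally expressed loci, MEST reached 8 counts, DLK1 8, RTL1 4 and NAP1L5 5. DLK1 held 8, 4 and 2 counts in β-arrestin1/2 KO basal, 3, 2 and 1 in Gαs KO basal and 0, 0 and 0 in wildtype basal. After isoproterenol DLK1 held 1, 5 and 0 in β-arrestin1/2 KO, 1, 0 and 0 in Gαs KO and 0, 0 and 1 in wildtype. All annotated transcripts of PEG3, ZIM2, MEST, SNRPN, SNURF, MKRN3 and NAP1L5 were measured. NLRP2 was at 0, but only 1 of its 19 annotated transcripts was measured, so its silence was not established. Counts also fell on 14764 transcripts that matched no gene of the annotation, and reads of a silent gene that lay there would not be seen.

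Imprinted control regions carry CpG sites whose methylation is kept by zinc finger proteins, of which ZFP57 recognises the methylated letters TGCCGC. The 250 bases upstream of RefSeq start sites (GRCh38.p14) were searched for TGCCGC or its reverse complement GCGGCA, which can share 2 letters (the GC at the end of the one and the start of the other). Windows were given for 19 of the 32 members. The letters occurred in 12.7% of 34943 promoter windows of all genes and in 14 of 42 windows of members, or 33.3%. They were found in 5 of 16 windows of silent or low members and in 5 of 20 windows of tested members. The remaining matches lay at MEG3 and ZDBF2, whose transcripts were not analysed. Windows of 1 gene can overlap, as those of MEG3 do, and each was counted, so the windows are not independent. A match is a description of the letters and not a binding site. Shown here are 3 upstream windows of silent genes and, for contrast, 2 of well expressed genes, with the searched letters in capitals. SNRPN and SNURF share the first window (chr15:24954737-24954986, plus strand), and the others are NDN (chr15:23687306-23687555, minus strand), NAP1L5 (chr4:88697830-88698079, minus strand), UBE3A (chr15:25439057-25439306, minus strand) and PLAGL1 (chr6:144008260-144008509, minus strand).
SNRPN/SNURF: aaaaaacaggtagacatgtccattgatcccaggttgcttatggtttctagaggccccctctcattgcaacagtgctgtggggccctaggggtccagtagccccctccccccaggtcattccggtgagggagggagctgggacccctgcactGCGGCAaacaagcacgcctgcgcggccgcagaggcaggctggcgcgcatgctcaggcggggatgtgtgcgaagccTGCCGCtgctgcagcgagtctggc
NDN: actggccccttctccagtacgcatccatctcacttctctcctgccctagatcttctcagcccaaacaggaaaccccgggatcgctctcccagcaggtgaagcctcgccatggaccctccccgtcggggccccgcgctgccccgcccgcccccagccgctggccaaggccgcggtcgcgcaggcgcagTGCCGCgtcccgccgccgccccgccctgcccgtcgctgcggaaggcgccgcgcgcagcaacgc
NAP1L5: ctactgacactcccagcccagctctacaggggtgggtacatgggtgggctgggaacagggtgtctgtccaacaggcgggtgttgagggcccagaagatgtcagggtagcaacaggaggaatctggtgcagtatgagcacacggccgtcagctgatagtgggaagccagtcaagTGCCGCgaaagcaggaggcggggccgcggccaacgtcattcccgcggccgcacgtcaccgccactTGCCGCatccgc
UBE3A: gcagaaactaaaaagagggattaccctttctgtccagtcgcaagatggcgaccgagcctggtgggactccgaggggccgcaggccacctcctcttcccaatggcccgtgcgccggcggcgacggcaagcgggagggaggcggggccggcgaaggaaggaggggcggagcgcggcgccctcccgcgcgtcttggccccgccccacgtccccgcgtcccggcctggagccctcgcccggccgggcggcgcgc
PLAGL1: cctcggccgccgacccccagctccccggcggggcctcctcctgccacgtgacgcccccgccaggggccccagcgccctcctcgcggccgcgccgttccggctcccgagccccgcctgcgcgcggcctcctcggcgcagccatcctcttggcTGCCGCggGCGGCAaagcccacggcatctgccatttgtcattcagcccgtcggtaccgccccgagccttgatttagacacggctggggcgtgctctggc
The silent windows held 12 CpG sites for SNRPN, 30 for NDN and 16 for NAP1L5. The expressed UBE3A window held 33 and none of the searched letters, and the expressed PLAGL1 window held 32 with 2 matches. Among these 5 windows, chosen for display, each silent window held fewer CpG sites than each expressed one, while the searched letters occurred in both kinds. That separation did not hold over all windows. Those of silent or low members held 1 to 30 CpG sites (median 10) and those of tested members 1 to 40 (median 20).

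The tested members were compared between lines with edgeR's quasi-likelihood test, and a gene was called at a Benjamini-Hochberg adjusted p under 0.05 over all 15519 genes. At basal, 5 of 15 members were called between β-arrestin1/2 KO and wildtype, with BLCAP, CDKN1C, IGF2 and PEG10 higher and IGF2R lower, where 33.6% of all genes were called (15.7% higher and 17.9% lower). Between Gαs KO and wildtype at basal, 4 of 15 were called against a background of 31.3% (14.2% higher and 17.1% lower), with CDKN1C higher and BLCAP, IGF2 and L3MBTL1 lower. Between the KO lines at basal, 6 of 15 were called against 26.2% (13.8% higher and 12.4% lower), with BLCAP, CDKN1C, IGF2, L3MBTL1 and PEG10 higher in β-arrestin1/2 KO and GRB10 lower. After isoproterenol, 4 of 15 were called in β-arrestin1/2 KO against wildtype, where 30.0% of all genes were, all 4 of them higher (14.3% of all genes higher and 15.7% lower). In Gαs KO against wildtype 4 of 15 were called against 29.9%, 2 higher and 2 lower (14.1% and 15.8%), and between the KO lines 5 of 15 against 31.1%, 4 higher and 1 lower (15.4% and 15.7%). The share of members called ranged from 26.7 to 40% over the 6 comparisons, beside 26.2 to 33.6% of all genes. The median log2 difference of the 15 members in β-arrestin1/2 KO against wildtype at basal was 0.17, beside 0.02 over all genes, and in Gαs KO against wildtype it was −0.05, beside 0.01. Between the KO lines at basal it was 0.61, beside −0.0044, with 11 of 15 members higher in β-arrestin1/2 KO. After isoproterenol the medians were 0.38, 0.05 and 0.42 in the same order, beside 0.01, 0.01 and −0.0047 over all genes. Without wildtype basal replicate 1, the 6 counts in the same order were 5, 6, 8, 8, 6 and 9, where 46.7, 45.9, 45.3, 49.6, 49.4 and 51.1% of all genes were called. Between the KO lines at basal, the call of PEG10 was lost without any 1 of the 6 compared libraries. That of GRB10 was lost without any 1 of them other than β-arrestin1/2 KO replicate 2, and that of L3MBTL1 without any 1 other than Gαs KO replicate 1. After isoproterenol, the GRB10 call between the KO lines was lost without β-arrestin1/2 KO replicate 3 or Gαs KO replicate 2.

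A gene was called specific to a line when it differed from both other lines in the same direction at basal and after isoproterenol, which takes 4 calls. By this rule 3 of 15 members, BLCAP, CDKN1C and IGF2, were specific to at least 1 line, where 23.5% of all tested genes were. All 3 were gained in β-arrestin1/2 KO, where 4.38% of all genes were. IGF2 was also lost in Gαs KO, where 5.12% of all genes were, and CDKN1C was lost in wildtype, where 3.91% were. By this edgeR rule 0 of 15 members were lost in β-arrestin1/2 KO (4.59% of all genes), gained in Gαs KO (3.61%) or gained in wildtype (5.40%). Without wildtype basal replicate 1, GRB10 and PEG10 joined them, giving 5 of 15, where 41.1% of all genes were specific to a line.

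The largest difference between lines lay at IGF2 (ENSG00000167244, GRCh38 chr11:2129112-2149603, minus strand), which codes for a fetal growth factor and is expressed from the paternal chromosome. In β-arrestin1/2 KO at basal the 3 libraries held 1055, 866 and 812 normalised counts, and after isoproterenol 739, 821 and 708. In wildtype the values were 278, 146 and 181 at basal and 155, 133 and 187 after isoproterenol. In Gαs KO they were 135, 103 and 85.4 at basal and 88.1, 70.5 and 98.9 after isoproterenol. Every β-arrestin1/2 KO library therefore lay above every wildtype library, and within each treatment every wildtype library lay above every Gαs KO library. The log2 difference of β-arrestin1/2 KO against wildtype was 2.17 ± 0.22 (SE, n = 3 libraries a group) at basal, or 4.50-fold (edgeR adjusted p = 1.4e-06). It was 2.25 ± 0.22 after isoproterenol (edgeR adjusted p = 1.2e-06). Only 2.62% of all tested genes had a larger absolute difference at basal. Gαs KO lay below wildtype by −0.91 ± 0.22 at basal (edgeR adjusted p = 0.0052) and −0.89 ± 0.23 after isoproterenol (edgeR adjusted p = 0.0078). The KO lines differed from each other by 3.08 ± 0.22 at basal, or 8.44-fold (edgeR adjusted p = 3.9e-08). The order β-arrestin1/2 KO, wildtype, Gαs KO was the same in both treatments, and each step passed the test. Without wildtype basal replicate 1, which held the highest wildtype value, the basal differences from wildtype were 2.48 and −0.61, both still called. In a fit of the 2 compared groups alone, the basal difference between Gαs KO and wildtype was not called.

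The IGF2 signal came mainly from 3 of its transcripts with separate start sites. ENST00000381395, which starts at chr11:2137290, had 45.7 ± 43.6 normalised counts (SD, n = 3) in wildtype basal and 426 ± 20.8 in β-arrestin1/2 KO basal. ENST00000416167, which starts at chr11:2139389, had 121 ± 140 and 363 ± 70.6 in the same groups. ENST00000381406, which starts at chr11:2138974, had 22.9 ± 21.6 and 89.2 ± 51.0, and was at 0 in all 6 Gαs KO libraries. The means of all 3 transcripts were thus higher in β-arrestin1/2 KO, although their shares varied between libraries of 1 group, as estimated counts of overlapping isoforms do. The read-through gene INS-IGF2 had 0 counts in all libraries, and a second annotated gene of the name IGF2 had at most 5. The first of these transcripts made up 41.8 to 53.5% of the gene in β-arrestin1/2 KO basal libraries.

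CDKN1C (ENSG00000129757, GRCh38 chr11:2883213-2885773, minus strand), an inhibitor of cyclin-dependent kinases expressed from the maternal chromosome, was higher in both KO lines than in wildtype. Wildtype held 256, 126 and 198 normalised counts at basal and 236, 297 and 345 after isoproterenol. β-arrestin1/2 KO held 729, 634 and 614 at basal and 642, 675 and 733 after isoproterenol. Gαs KO held 390, 487 and 406 at basal and 449, 447 and 407 after isoproterenol. The lines did not overlap in either treatment, with wildtype lowest, Gαs KO in the middle and β-arrestin1/2 KO highest. At basal, the log2 difference from wildtype was 1.77 ± 0.19 in β-arrestin1/2 KO (edgeR adjusted p = 4.1e-06) and 1.14 ± 0.19 in Gαs KO (edgeR adjusted p = 2.6e-04). After isoproterenol, the differences were 1.22 ± 0.19 (edgeR adjusted p = 1.3e-04) and 0.57 ± 0.19 (edgeR adjusted p = 0.03). The KO lines differed by 0.62 ± 0.18 at basal and 0.65 ± 0.18 after isoproterenol (edgeR adjusted p = 0.019 and 0.013). The call between Gαs KO and wildtype after isoproterenol was lost in 5 of 15 alternative fits, among them those without isoproterenol replicates 1 or 2 of either line. That between the KO lines was lost at basal without β-arrestin1/2 KO replicate 1 or Gαs KO replicates 1 or 3, and after isoproterenol without Gαs KO replicate 3. The gene stayed on 1 main transcript, ENST00000440480, with 167 counts in wildtype basal, 568 in β-arrestin1/2 KO basal and 337 in Gαs KO basal.

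In the same domain as CDKN1C lies PHLDA2, which codes for a small pleckstrin homology protein that limits placental growth and is also expressed from the maternal chromosome. It held 237, 285 and 257 normalised counts in β-arrestin1/2 KO basal and 243, 299.5 and 322 after isoproterenol. Wildtype held 149, 76.9 and 97.4 at basal and 119, 106 and 0 after isoproterenol, and Gαs KO held 51.9 to 117 over its 6 libraries. All 6 β-arrestin1/2 KO libraries lay above the other 12, and the library at 0 was isoproterenol replicate 3 of wildtype. PHLDA2 was measured through 1 transcript, ENST00000314222. Its log2 difference in β-arrestin1/2 KO was 1.27 ± 0.63 against wildtype at basal (edgeR adjusted p = 0.14, not called) and 1.94 ± 0.65 after isoproterenol (edgeR adjusted p = 0.033). Without the library at 0, a fit chosen after its value was seen, the basal difference was 1.27 ± 0.24 (edgeR adjusted p = 8.0e-04) and that after isoproterenol 1.35 ± 0.27 (edgeR adjusted p = 0.002). The difference from Gαs KO was 1.34 ± 0.63 at basal (edgeR adjusted p = 0.13) and 1.89 ± 0.65 after isoproterenol (edgeR adjusted p = 0.035), and in that fit it was 1.35 ± 0.24 and 1.89 ± 0.24, both called. At basal, fits of the 2 compared groups alone, which hold no isoproterenol library, also called PHLDA2 against both lines. In these fits 10.3% of all genes were called against wildtype and 48.2% against Gαs KO. With all other libraries kept, the calls after isoproterenol were lost against both lines without any 1 of the β-arrestin1/2 KO isoproterenol libraries and by DESeq2's Wald test, and against Gαs KO also without any 1 of its isoproterenol libraries.

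SLC22A18, a transporter gene of the same domain, lay between 1.05 and 41.7 normalised counts and passed no test. It overlaps SLC22A18AS on the other strand, and the sources used here do not say whether counting used strand, so the reads of the pair may be shared. Its log2 difference in β-arrestin1/2 KO against wildtype was −0.17 ± 0.79 at basal and 1.35 ± 0.81 after isoproterenol, and whether it differed from those of the other genes was not tested. IGF2 belongs to the H19-IGF2 domain and the other 3 genes to the neighbouring KCNQ1OT1-CDKN1C domain, each with its own control region. In Gαs KO, IGF2 was lower and CDKN1C higher than in wildtype.

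**Figure D2:**
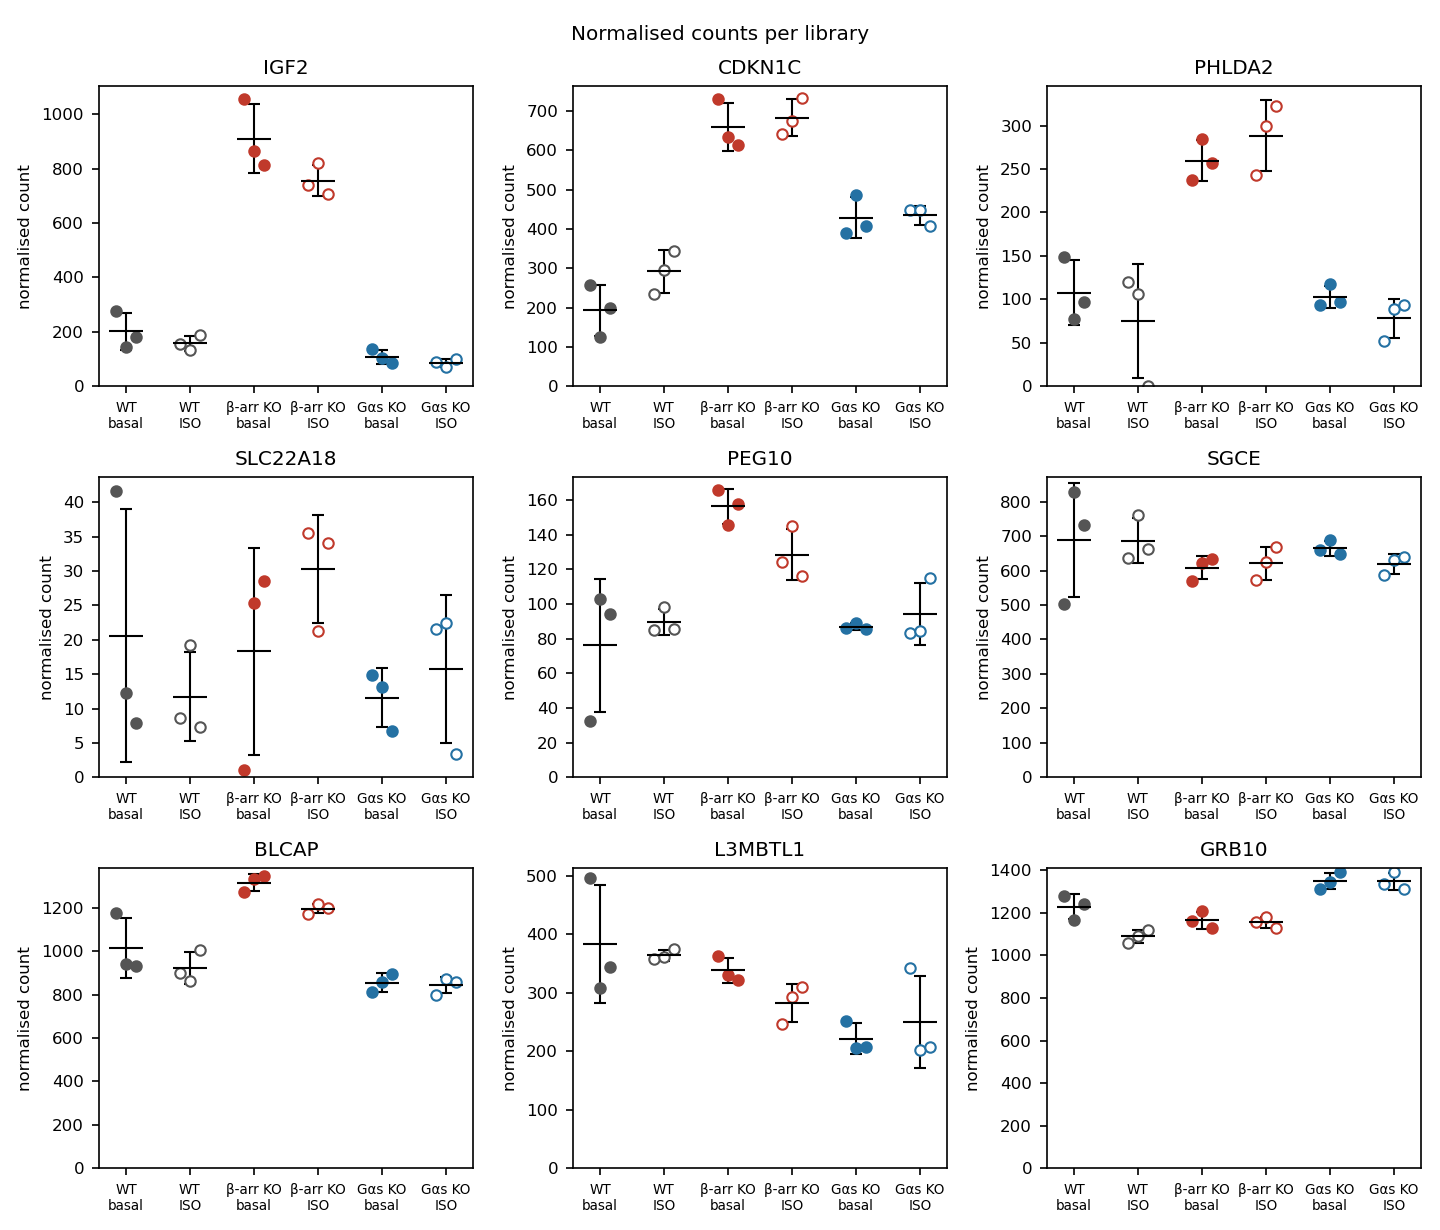
Normalised counts (vertical axes, starting at 0) of 9 imprinted genes in the 6 groups. Points are libraries (filled at basal, open after isoproterenol), horizontal marks are means and bars are SD (n = 3). IGF2, CDKN1C and PHLDA2 are highest in the β-arrestin1/2 KO libraries, GRB10 is highest in Gαs KO and SGCE overlaps between wildtype and both KO lines.

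PEG10 and SGCE on chromosome 7 are transcribed away from each other from neighbouring start sites, both from the paternal chromosome, and behaved differently. PEG10, a gene derived from a retrotransposon and needed for the placenta, held 166, 146 and 158 normalised counts in β-arrestin1/2 KO basal. Wildtype basal held 32.3, 103 and 94.0, and Gαs KO basal 85.9, 89.0 and 85.4. Every β-arrestin1/2 KO basal library was above the other basal libraries, and the lowest value was that of the wildtype library with high GC content. The log2 difference from wildtype was 1.04 ± 0.28 at basal (edgeR adjusted p = 0.0098) and 0.52 ± 0.28 after isoproterenol (edgeR adjusted p = 0.18). Without that library they were 0.67 ± 0.17 and 0.52 ± 0.15, both called. In a fit of the 2 compared groups alone, the basal call was lost (edgeR adjusted p = 0.15). SGCE, which codes for a sarcoglycan of the cell membrane, held 504 to 827 normalised counts over all libraries and was not called, with a basal difference of −0.18 ± 0.14 in β-arrestin1/2 KO. Without the same wildtype library it was lower in β-arrestin1/2 KO by −0.35 ± 0.09 (edgeR adjusted p = 0.003) and in Gαs KO by −0.23 ± 0.09 (edgeR adjusted p = 0.037). The start sites of the pair overlap, and the part of shared reads was not tested.

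BLCAP and L3MBTL1 lie on chromosome 20, the chromosome of GNAS. BLCAP, a membrane protein gene that hosts the imprinted gene NNAT in an intron, held 1270, 1330 and 1345 normalised counts in β-arrestin1/2 KO basal. Wildtype basal held 1173, 939 and 931, and Gαs KO basal 810, 857 and 895. The 3 lines did not overlap at basal. The log2 difference from wildtype was 0.37 ± 0.09 in β-arrestin1/2 KO (edgeR adjusted p = 0.0047) and −0.25 ± 0.09 in Gαs KO (edgeR adjusted p = 0.0497). After isoproterenol, they were 0.38 ± 0.09 (edgeR adjusted p = 0.0051) and −0.13 ± 0.09 (edgeR adjusted p = 0.32). The basal call in β-arrestin1/2 KO against wildtype was lost in a fit of the 2 compared groups alone (edgeR adjusted p = 0.13). The basal call in Gαs KO was lost in 7 of 14 alternative fits, among them the fits without wildtype basal replicate 1 (log2 difference −0.13) and without any 1 of the Gαs KO basal libraries. NNAT itself stayed at 0 to 11 counts and was not tested.

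L3MBTL1, which codes for a chromatin-compacting protein and is expressed from the paternal chromosome, held 252, 206 and 207 normalised counts in Gαs KO basal. Wildtype basal held 497, 308 and 345, and β-arrestin1/2 KO basal 363, 330 and 322, so that Gαs KO lay below both. Its log2 difference in Gαs KO against wildtype was −0.79 ± 0.19 at basal (edgeR adjusted p = 0.0055) and −0.54 ± 0.19 after isoproterenol (edgeR adjusted p = 0.047). The basal value was −0.56 ± 0.18 without wildtype basal replicate 1, still called, but the basal call was lost in a fit of the 2 compared groups alone (edgeR adjusted p = 0.06). The call after isoproterenol was lost in 8 of 15 alternative fits, among them those without any 1 of the wildtype isoproterenol libraries or without Gαs KO isoproterenol replicates 2 or 3. Over the whole of chromosome 20, the median log2 difference of 407 tested genes in Gαs KO against wildtype was −0.38 at basal, with 198 called lower and 18 higher. BLCAP at −0.25 and L3MBTL1 at −0.79 thus lay on a chromosome that was lower in this line as a whole. The part of that shift in the values of the 2 genes was not tested.

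The remaining tested members are a signalling adaptor, a receptor, a transcription factor and genes of other functions. The largest log2 differences between lines were 0.31 for GRB10, −0.34 for IGF2R and −0.25 for PLAGL1, and those of the scarce KCNK9 and DIRAS3 reached 2.10 and 2.05 without passing edgeR's test. GRB10, an adaptor that dampens insulin and IGF signalling, held 1337, 1394 and 1313 normalised counts in Gαs KO after isoproterenol, above 1059, 1093 and 1119 in wildtype. The log2 difference was 0.31 ± 0.06 (edgeR adjusted p = 0.0018), kept in all 15 alternative fits. At basal it was 0.13 ± 0.06 (edgeR adjusted p = 0.12), or 0.16 ± 0.05 and called without wildtype basal replicate 1. IGF2R, the receptor that takes IGF2 to lysosomes, held 5394, 4879 and 4941 in β-arrestin1/2 KO basal against 7851, 5918 and 5512 in wildtype. Its difference of −0.34 ± 0.11 was called (edgeR adjusted p = 0.025) but not without wildtype basal replicate 1, which held the highest value, nor without β-arrestin1/2 KO basal replicates 2 or 3. After isoproterenol it was −0.23 ± 0.11 (edgeR adjusted p = 0.13), or −0.23 ± 0.07 and called without wildtype basal replicate 1. PLAGL1, a zinc finger transcription factor expressed from the paternal chromosome, lay between 406 and 713 counts and passed no test.

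UBE3A, a ubiquitin ligase whose imprint is known from neurons, held 832, 1934 and 1628 normalised counts in wildtype basal and 1391 to 1858 in the other 15 libraries. It passed no test with all libraries, with a basal difference of 0.17 ± 0.19 in β-arrestin1/2 KO against wildtype. The first of these wildtype values is that of the library with high GC content, and without it UBE3A was lower in Gαs KO basal than in wildtype by −0.29 ± 0.07 (edgeR adjusted p = 0.0023). In that fit it was also higher in β-arrestin1/2 KO than in wildtype after isoproterenol, by 0.19 ± 0.06 (edgeR adjusted p = 0.014), and higher than in Gαs KO by 0.17 ± 0.06 at basal and 0.31 ± 0.06 after isoproterenol (edgeR adjusted p = 0.028 and 4.0e-04). KCNK9, a potassium channel gene expressed from the maternal chromosome, held 17.8, 28.5 and 10.6 counts in β-arrestin1/2 KO basal and 3.13, 7.81 and 2.24 in wildtype basal. Its log2 difference of 2.10 ± 0.79 narrowly missed the threshold (edgeR adjusted p = 0.0500169) and passed it in 4 of 14 alternative fits, DESeq2's Wald test among them. In β-arrestin1/2 KO basal, 67.8% of the KCNK9 counts lay on ENST00000523653, a transcript of 576 bases not annotated as protein-coding. That transcript was at 0 in wildtype basal. Among the leading KCNK9 transcripts, the protein-coding ENST00000520439 was at 0 in both groups, so a difference in channel mRNA is not shown. TRAPPC9, the neighbour of KCNK9 and a subunit of a vesicle tethering complex, lay between 279 and 643 counts. Its log2 difference of −0.42 ± 0.15 in Gαs KO against wildtype at basal narrowly missed the threshold (edgeR adjusted p = 0.0502), and that between the KO lines after isoproterenol was 0.42 ± 0.16 (edgeR adjusted p = 0.0541). DESeq2's Wald test and the fit with offsets for GC content and length called both. DIRAS3, a Ras-like growth suppressor expressed from the paternal chromosome, lay between 0 and 13.7 counts. Its largest difference was 2.05 ± 0.90 in Gαs KO against wildtype after isoproterenol (edgeR adjusted p = 0.098).

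**Figure D3:**
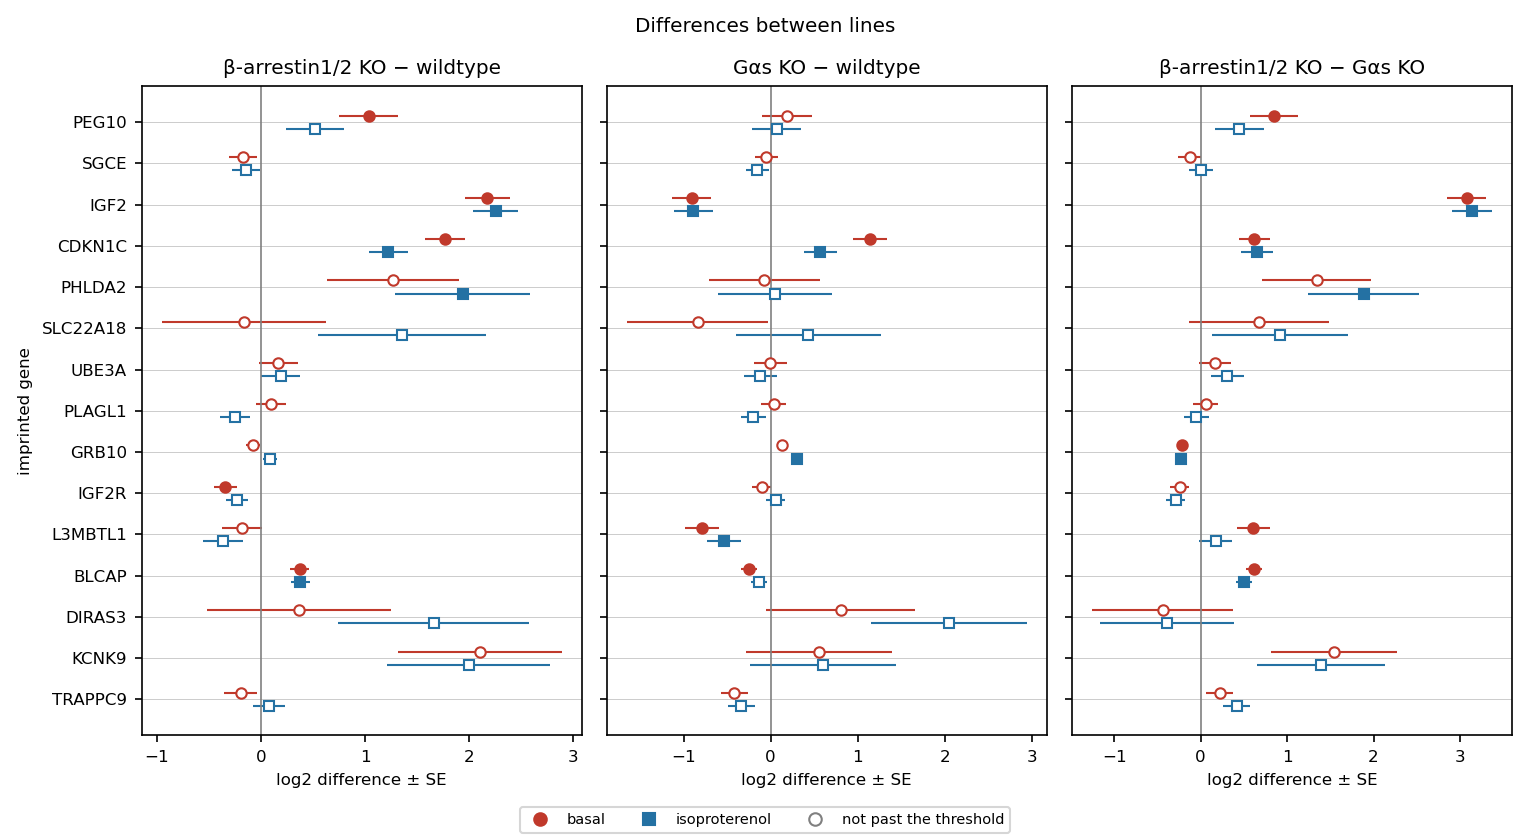
Log2 differences ± SE (horizontal axes) of the 15 tested imprinted genes between lines, at basal (circles) and after isoproterenol (squares). Filled symbols passed edgeR's test at an adjusted p under 0.05. IGF2 stands to the right in both β-arrestin1/2 KO panels, at 2.17 and 3.08 at basal, and to the left in the Gαs KO panel.

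The 1 h response to isoproterenol was tested in each line. With edgeR's quasi-likelihood test, 0 of 15 members were called in wildtype, where 0.464% of all genes were (0.412% higher and 0.0515% lower), 0 of 15 in β-arrestin1/2 KO, where 1.13% were (0.954% and 0.174%), and 0 of 15 in Gαs KO, where 0% were. At an unadjusted p under 0.05 there were 2, 0 and 0 members, beside 10.5, 8.31 and 1.05% of all genes. DESeq2's Wald test called 0 members in each, beside 1.2, 1.88 and 0.0580% of all genes. The 2 in wildtype were CDKN1C and GRB10. CDKN1C differed by 0.59 ± 0.19 on the log2 scale (edgeR adjusted p = 0.31), its basal and isoproterenol libraries overlapping, and GRB10 by −0.17 ± 0.06 (edgeR adjusted p = 0.39) without overlap. The response of CDKN1C was 0.05 ± 0.18 in β-arrestin1/2 KO and 0.02 ± 0.18 in Gαs KO. Without wildtype basal replicate 1, the CDKN1C response in wildtype was 0.85 ± 0.18 (edgeR adjusted p = 0.02), where 1.1% of all genes were called, and it was also called with offsets for GC content and length, where 1.46% were. The difference between lines in response was called for 0 of 15 members in β-arrestin1/2 KO against wildtype (background 0.168%, of which 0.142% higher and 0.0258% lower) and 0 of 15 in Gαs KO against wildtype (0.161%, of which 0.00644% higher and 0.155% lower), with 0 and 1 members at an unadjusted p under 0.05 (5.57 and 4.63% of all genes) and 0 by DESeq2 (0.670 and 0.438%). Without that library, CDKN1C (−0.80 ± 0.22, edgeR adjusted p = 0.036) and UBE3A (0.30 ± 0.09, edgeR adjusted p = 0.049) were called for β-arrestin1/2 KO against wildtype, where 8.25% of all genes were called.

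Genes outside the list were set beside the members, domain by domain, over all tested genes within 1 Mb, some of which, such as KCNQ1, are known to be imprinted themselves. Around the IGF2 domain, 17 neighbours had a median log2 difference of 0.22 in β-arrestin1/2 KO against wildtype at basal, with 3 called higher and 0 lower and a highest value of 1.51. IGF2 at 2.17 lay above these 17, but within 2 Mb the highest of 61 genes was at 5.39. Around the CDKN1C domain, 20 neighbours, many of them shared with IGF2, had a median of 0.11 in the same comparison and −0.29 in Gαs KO against wildtype. At basal CDKN1C lay above these 20 in both, and in Gαs KO it was higher where 4 neighbours were called lower and 0 higher. Within 2 Mb the highest of 46 genes was at 3.10 in β-arrestin1/2 KO, above CDKN1C at 1.77. After isoproterenol, 2 of the 20 lay above CDKN1C at 1.22 in β-arrestin1/2 KO, namely SLC22A18AS at 1.90 (edgeR adjusted p = 0.035) and TRPM5 at 1.38 (edgeR adjusted p = 0.50). At basal the highest of them in β-arrestin1/2 KO was SLC22A18AS at 1.51 (edgeR adjusted p = 0.07). Chromosome 11 as a whole had a median of 0.21 over 869 genes in this comparison.

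Around BLCAP, 20 neighbours had a median of −0.06 in β-arrestin1/2 KO and −0.33 in Gαs KO against wildtype at basal, where 11 were called lower and 1 higher. BLCAP lay at 0.37 and −0.25, so that in Gαs KO it was close to its neighbours. Around L3MBTL1, 11 neighbours had a median of −0.24 in Gαs KO, with 5 called lower and 0 higher. The lowest of them was at −1.33, below L3MBTL1 at −0.79. Around PEG10 and SGCE, 8 neighbours had a median of 0.26 in β-arrestin1/2 KO, against 1.04 for PEG10 and −0.18 for SGCE. Both members lay within the range of these neighbours, which was −0.97 to 1.78. Around KCNK9 and TRAPPC9, 7 neighbours had a median of −0.60 in β-arrestin1/2 KO and −0.61 in Gαs KO, with 4 called lower and 0 higher in each. TRAPPC9 lay at −0.20 and −0.42, and KCNK9 at 2.10 and 0.56, above these neighbours in both. Chromosome 8 as a whole had medians of −0.11 and −0.19. The part of this regional shift in the value of TRAPPC9 was not tested.

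**Figure D4:**
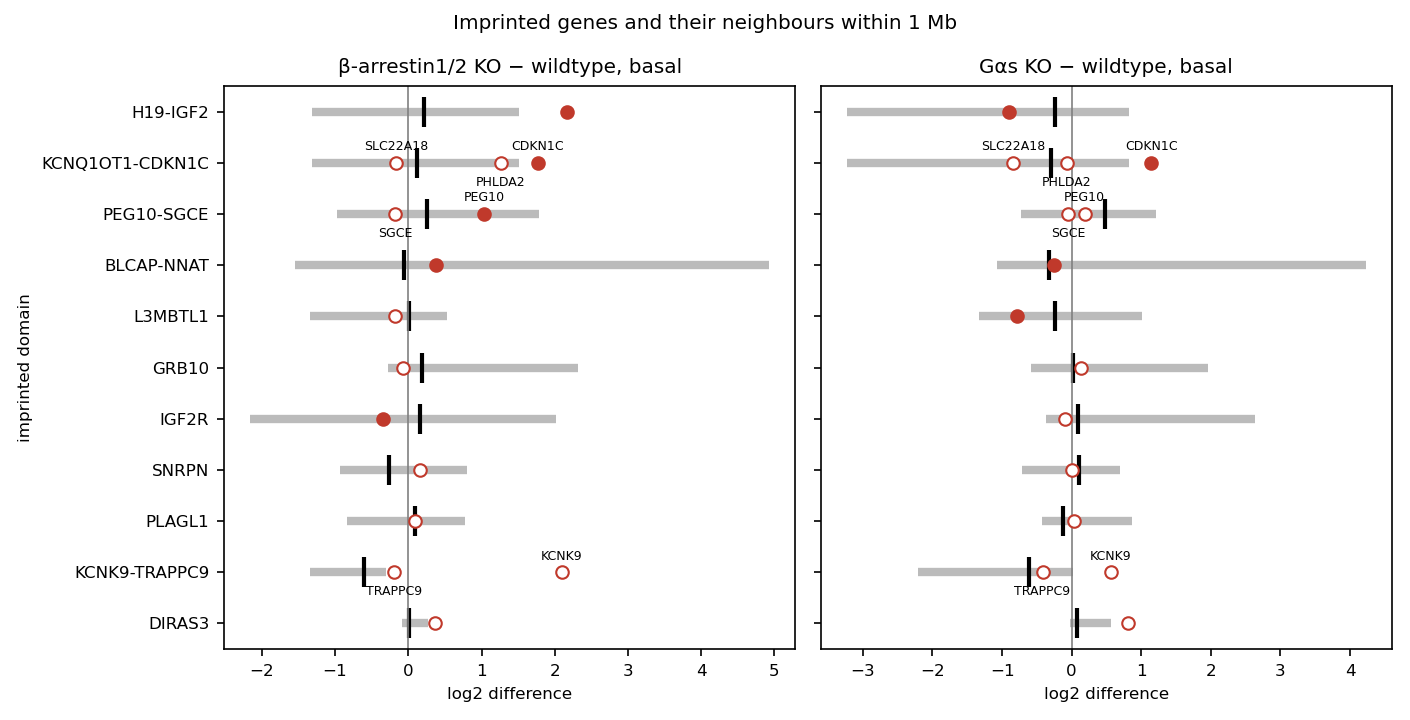
Basal log2 differences (horizontal axes) of tested imprinted genes (circles, filled where called) beside the genes within 1 Mb of each domain, for which a grey bar gives the range and a black tick the median. IGF2 and CDKN1C lie right of the neighbour range in the β-arrestin1/2 KO panel, and BLCAP lies near the tick of its neighbours in the Gαs KO panel.

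Further imprinted genes and genes that set or keep imprints were read from lists chosen by name, also with earlier results known. Of 46 further imprinted genes, 21 were tested. In β-arrestin1/2 KO against wildtype at basal 4 were called higher and 5 lower, in Gαs KO 3 and 3, and between the KO lines 3 and 2. These counts stand beside 15.7% higher and 17.9% lower over all genes in the first comparison, 14.2 and 17.1% in the second and 13.8 and 12.4% in the third. The 3 largest called differences in β-arrestin1/2 KO were SLC22A3, an organic cation transporter beside IGF2R (2.02 ± 0.56), TFPI2, a protease inhibitor near PEG10 (1.78 ± 0.29), and SGK2, a kinase (−1.34 ± 0.48). In Gαs KO they were CPA4, a carboxypeptidase near MEST (2.83 ± 0.71), TFPI2 (1.22 ± 0.29) and the tumour suppressor RB1 (1.17 ± 0.21). Between the KO lines they were CPA4 (−2.62 ± 0.68), KCNQ1, the potassium channel gene beside CDKN1C (0.84 ± 0.19), and the zinc finger gene ZNF597 (0.67 ± 0.18). SGK2 and CPA4 were scarce, with highest counts of 28 and 29 in any library. For SLC22A3 and RB1, wildtype basal replicate 1 held the lowest wildtype basal counts (2 and 399), and fits without it are not given. RB1 was high in β-arrestin1/2 KO basal too, with 1464, 2040 and 1525 counts before scaling, against at most 948 in wildtype basal.

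Of 35 imprint regulators, 27 were tested, and 3 were called higher and 6 lower in β-arrestin1/2 KO against wildtype at basal, 7 higher and 2 lower in Gαs KO, and 0 higher and 4 lower between the KO lines, beside the same shares of all genes. EED, a subunit of the Polycomb complex that methylates histone H3, was higher in both KO lines, by 1.56 ± 0.34 and 1.07 ± 0.34. Its wildtype basal level was 71.7 ± 42.0 normalised counts (SD, n = 3), with replicate 1 lowest. CTCFL, a paralogue of the insulator protein CTCF, was lower in both, by −1.26 ± 0.46 and −1.85 ± 0.48. DNMT3B, a de novo DNA methyltransferase, was lower in Gαs KO by −0.89 ± 0.10 (edgeR adjusted p = 6.3e-06), from 1222 ± 177 to 657 ± 48.4 normalised counts (SD, n = 3). It was low in β-arrestin1/2 KO basal too, with 683, 905 and 733 counts before scaling, against 1354, 950 and 1068 in wildtype basal. CTCFL and DNMT3B lie on chromosome 20, where the median log2 difference at basal was −0.38 in Gαs KO and 0.03 in β-arrestin1/2 KO against wildtype. The part of the chromosome-wide shift of Gαs KO in their values was not tested. EZH2, the methyltransferase of the same Polycomb complex, and EHMT1, which methylates histone H3 at another lysine, were lower in β-arrestin1/2 KO than in Gαs KO, by −0.56 ± 0.11 and −0.28 ± 0.09. EHMT2 was also among the largest called, with 0 counts in all β-arrestin1/2 KO basal libraries, but only 1 of its 12 annotated transcripts was measured and no fold is given.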

How the data were processed

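Poly(A) RNA was sequenced from cells of the 3 lines, and the 18 libraries formed 6 groups of 3 by their labels. The authors quantified reads with Salmon 1.7.0 per the labels and deposited estimated counts per transcript. The transcript index and the use of strand are not given in the sources used here, and the submitters' notes name GRCh38.

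Here 161798 of 184844 transcripts were matched by identifier to GENCODE release 29, and estimated counts were rounded after summing them over 34255 genes. Gene coordinates are those of GRCh38 in that annotation. Normalised counts are gene counts scaled by TMM to the mean library. edgeR 4.0.16 (TMM, filterByExpr by group, glmQLFit and glmQLFTest) was fitted to all 18 libraries with 1 coefficient a group, with Benjamini-Hochberg adjustment over 15519 genes. SE is the absolute log2 difference divided by the root of F. The script was tested on simulated data. TPM used annotated transcript lengths.

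The depth of 17908597 to 25019834 counts limits genes of a few counts, and intervals and floors cover counting error only. Alternatives were DESeq2 1.42.0, its size factors, no filter, fits of the compared groups alone, a replicate block, offsets for GC content and length, unmatched transcripts kept as rows, each library left out, a log2 minimum of 1 and neighbours within 2 Mb. The members and gene lists were chosen with earlier results of these data known. All members are named, and from the further lists the 3 called genes with the largest basal difference in each comparison. Other files of the study were not used here. With 3 libraries a group, an exact permutation test of 1 gene cannot go below 0.1.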

Additional observations from a re-analysis of the deposited data

How the results depend on the processing

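No called difference of a member changed direction under the alternatives run, whereas values that passed no test could (PEG10 in Gαs KO against wildtype at basal was 0.19, and −0.18 without wildtype basal replicate 1). The calls of IGF2 and CDKN1C in β-arrestin1/2 KO against wildtype held in every fit run and passed a minimum absolute log2 difference of 1. GRB10 in Gαs KO against wildtype after isoproterenol was called in every fit but, at 0.31, does not pass that minimum. In fits of the compared groups alone, the numbers of members called in the 6 comparisons between lines, in the order of the report, were 3, 1, 9, 10, 5 and 9, where 10.3, 10.8, 48.2, 49.5, 50.9 and 54.1% of all genes were called. Against wildtype at basal, these fits lost the calls of BLCAP, IGF2R and PEG10 in β-arrestin1/2 KO and of BLCAP, IGF2 and L3MBTL1 in Gαs KO. They called PHLDA2 in addition in β-arrestin1/2 KO. With a minimum absolute log2 difference of 1, the counts were 3, 1, 1, 3, 0 and 2, where 8.09, 8.09, 7.49, 7.15, 7.70 and 8.78% of all genes passed. With unmatched transcripts kept, 2 members were called in Gαs KO against wildtype after isoproterenol, where 19% of all genes were. With offsets for GC content and length, 8 were called between the KO lines after isoproterenol (46.1% of all genes) and 1 in the wildtype response (1.46%), and with the replicate block added to those offsets the counts were again 8 and 1. The cause of these changes was not tested.

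When 1 library was left out, the counts ranged from 4 to 6, from 3 to 6 and from 2 to 8 in the 3 basal comparisons and from 3 to 8, from 2 to 6 and from 3 to 9 after isoproterenol. The wildtype response ranged from 0 to 1, the difference in response of β-arrestin1/2 KO against wildtype from 0 to 2 and the members specific to a line from 3 to 5. The fits of isoproterenol groups and of KO lines without wildtype basal replicate 1 (8, 6 and 9 after isoproterenol and 8 between the KO lines at basal), and those of PHLDA2 at basal without the library at 0, were chosen after seeing the data. Between the KO lines at basal 2 members were called without β-arrestin1/2 KO basal replicate 1 or Gαs KO basal replicate 3, and 3 without Gαs KO basal replicates 1 or 2 or β-arrestin1/2 KO basal replicate 3. After isoproterenol 2 were called in Gαs KO against wildtype without wildtype isoproterenol replicates 1 or 2 or Gαs KO isoproterenol replicate 2, and 3 between the KO lines without Gαs KO isoproterenol replicates 2 or 3 or β-arrestin1/2 KO isoproterenol replicate 3.

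Neighbour medians within 2 Mb were 0.15 and −0.20 around IGF2 in the KO lines against wildtype, −0.19 around CDKN1C in Gαs KO, 0.31 and −0.0031 around PEG10 in Gαs KO against wildtype and between the KO lines, −0.12, −0.42 and 0.33 around BLCAP, and −0.53 and 0.38 around L3MBTL1 in Gαs KO against wildtype and between the KO lines.

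Replicate numbers did not pair the samples, since the deviations of same-numbered libraries correlated at −0.0993 to 0.0766 over 27 pairs, with 0 above 0.1. With the replicate block, the counts between lines were 5, 3, 6, 4, 4 and 5, and 0 in the responses. Single calls lost with it were BLCAP in Gαs KO against wildtype at basal and PHLDA2 between the KO lines after isoproterenol. Without the low-count filter, DLK1, silent by the rule used here, was called in β-arrestin1/2 KO against wildtype at basal, where 4637 of 23903 genes were. It was not called between these lines after isoproterenol. Under a silence limit of 5 counts 8 members were silent, and under 20 counts 14. Depth limits KCNK9, DIRAS3, SLC22A18, NNAT and MAGEL2, and outside the members CTCFL, CPA4 and SGK2, all with at most 40 counts in a library.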
